A study of Mus musculus with 2 samples.

Results

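The Ifi200 family is a block of interferon-inducible genes on mouse chromosome 1, and 10 of its members among the 27998 genes of both count matrices are described here: Ifi202b, Pydc3, Pydc4, Pyhin1, Ifi204, Mnda, Mndal, Ifi203, Ifi205 and Aim2. They were picked by name as neighbours of Ifi202b, a gene singled out earlier because its values differed between the 2 libraries in these same data. The levels and differences below are therefore descriptions, and the members are given whether or not they differed.

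The family encodes PYHIN proteins, nuclear and cytosolic factors built from a pyrin domain, which binds other proteins, and a HIN domain, which binds DNA. Aim2 senses double-stranded DNA in the cytosol and assembles an inflammasome with the adaptor Asc (gene Pycard) and caspase-1. The product of Ifi202b has HIN domains but no pyrin domain and is known to restrain Aim2, and Ifi204 takes part in DNA sensing through STING (gene Tmem173). Members of the family are induced by interferons in macrophages and dendritic cells. Ifi202b is known for levels that differ between inbred mouse strains, with very low levels in C57BL/6, and the labels used here name no strain.

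The samples were immune cells sorted from B16Ova melanomas, a mouse tumor line carrying an ovalbumin antigen, grown under the flank skin of female mice and taken on day 13. The knockout (KO) mice were E8i-cre+, Tcf7 FL/FL, a Cre driven in mature CD8 T cells with floxed alleles of the transcription factor gene Tcf7, and the wildtype (WT) mice were E8i-cre-, Tcf7 FL/FL, so both groups carried the floxed alleles. From each of 3 tumors per group, 2000 cells of each of 4 gates were sorted (CD8 T cells, CD4 T cells, a CD11c+ MHCII+ dendritic cell gate and other CD45+ cells), mixed, and 7000 cells were loaded per channel. Each group is 1 library, the barcodes carry no tumor of origin, and the ages are not given in the sources used here.

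The KO library held 1219 barcodes and 11758449 unique molecular identifiers (UMIs, each counting 1 captured RNA molecule), and the WT library held 1120 barcodes and 9283014 UMIs. Filtering kept 1081 KO cells (median depth 8112 UMIs) and 982 WT cells (6144.5 UMIs), and 1 barcode occurred in both libraries. Clusters were named from marker genes, and each class name stands for "cells like" that type. The KO and WT libraries each held 50 or more cells of 7 classes: CD8 T cells (183 KO and 170 WT), CD4 T cells (176 and 178), T cells with no UMI of either co-receptor (134 and 117), type 1 conventional dendritic cells (cDC1s, 186 and 171), type 2 conventional dendritic cells (cDC2s, 108 and 64), mature dendritic cells (DCs, 60 and 98) and macrophages (62 and 70). The macrophage cluster also had S100a8 and S100a9 among its leading genes. Monocytes (88 KO and 26 WT cells) are given for their levels. Tcf7 itself stood at 53.2 CPM in KO CD8 T cells, against 154 CPM in WT CD8 T cells (CPM, the UMIs of a gene scaled to the total of its class), a log2 ratio of -1.54.

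With 1 library per group there was no test of KO against WT and no p-value. Ratios are given with exact 95% intervals that cover counting error only. To be called higher or lower in KO, a gene needed a 1.5-fold difference and an interval excluding 1, and it could be tested where the class held at least 20 of its UMIs over both libraries. A count of 0 was set to a floor of 3 UMIs over the class for a lower bound on a fold.

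The members lie between 173350879 and 174031810 on chromosome 1 (mm10, with GENCODE vM21 positions on the same assembly, GRCm38). Ifi202b is a protein-coding gene on the minus strand at chr1:173962568-173982744. Its neighbours on the same strand are Ifi203 at chr1:173920407-173942672 and Ifi205 at chr1:174011998-174031810, and Aim2, on the plus strand, lies farthest from it at chr1:173350879-173466040. The Mndal gene overlaps Mnda and Ifi203 on the same strand, so how counts were split among these 3 is uncertain.

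Promoter sequences from RefSeq (GRCm38.p6, 250 bases before to 50 after a start) matched 9 of the 10 members. They are shown because 6 members were higher in KO cDC2s (below). The motif searched, on both strands, was GAAA, any 2 bases and GAAA again, letters found in interferon-stimulated response elements, and 6 of the 9 matched members held it, against 3.99% of all 27025 genes in the table (3.44% of its 32851 promoters). Below, each run is 30 bases, 5′ to 3′ on the gene's strand, with the motif in capitals, and the matches begin at positions -134 to -35 from the start.
Pydc4 (RefSeq name Ifi213), chr1:173599326-173599355, minus strand: cgtctctgagGAAATCGAAAgctatgaacc
Pydc3 (RefSeq name Ifi208), chr1:173673597-173673626, plus strand: cgtctctgagGAAATCGAAAgctatgaacc
Mndal, chr1:173880204-173880233, minus strand: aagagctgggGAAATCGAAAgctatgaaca
Ifi203, chr1:173942508-173942537, minus strand: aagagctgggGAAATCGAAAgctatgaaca
Mnda (RefSeq name Ifi211), chr1:173913064-173913093, minus strand: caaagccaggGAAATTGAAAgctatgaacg
Ifi205, chr1:174031870-174031899, minus strand: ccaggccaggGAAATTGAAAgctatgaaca

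The runs fall into pairs, Pydc4 with Pydc3, Mndal with Ifi203, and Mnda with Ifi205, which share the bases inside and just before the motif. Mndal has a further match in its other promoter entry and Ifi205 has a further match after its start. No match lay in the windows of Ifi202b, Pyhin1 or Aim2, which says only that these letters are not in those 300 bases. The Ifi202b promoter is shown for comparison, with its match to TTCNNNGAA (the letters of a gamma-activated site, the same on both strands, found in 8.30% of all promoters) in capitals.
Ifi202b, chr1:173982795-173983094, minus strand: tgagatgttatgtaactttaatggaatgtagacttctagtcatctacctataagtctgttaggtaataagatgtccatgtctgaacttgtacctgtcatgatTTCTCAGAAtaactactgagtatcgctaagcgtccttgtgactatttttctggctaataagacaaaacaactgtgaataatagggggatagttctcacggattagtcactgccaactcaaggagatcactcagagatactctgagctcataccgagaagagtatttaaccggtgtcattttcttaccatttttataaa

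The members are similar enough that reads may be shared. Of the 91-base windows of the annotated Mnda transcript, 58.8% also occur in transcripts of other genes, led by Ifi205, Ifi204 and Mndal. For Pyhin1 the share was 18.9%, for Ifi205 15.5% and for Ifi204 11.4%, and for Pydc3, Pydc4, Mndal and Ifi203 it ran from 3.54% to 7.78%. Ifi202b and Aim2 shared 0 windows exactly with any other annotated gene, and windows with a mismatch were not searched.

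The family divided by cell class. Ifi205, which is reported to act on inflammasome genes in macrophages, was the highest member, with 1223 CPM in KO cDC1s and 1173 CPM in WT cDC1s. In KO cells it was next highest in cDC2s (710 CPM), monocytes (563 CPM) and macrophages (183 CPM), each step larger than the counting intervals. In WT cells monocytes came second (433 CPM), and cDC2s (273 CPM) and macrophages (263 CPM) did not separate. Mature DCs were lower, at 78.6 CPM in KO and 81.5 CPM in WT cells.

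Ifi204, Mnda and Pyhin1 were highest in monocytes, although Mnda did not separate there from cDC1s in WT cells. Ifi204 stood at 363 CPM in KO and 262 CPM in WT monocytes, then at 174 and 136 CPM in macrophages, 113 and 65.0 CPM in cDC2s, and 43.6 and 30.2 CPM in cDC1s. It held 0 UMIs in T cells without co-receptor UMIs in either library 5 KO and 1 WT UMIs in CD8 T cells, and 19 and 10 UMIs in CD4 T cells, so this DNA-sensing member was scarce in T cells. Mnda stood at 424 CPM in KO and 297 CPM in WT monocytes and at 233 and 251 CPM in cDC1s, against 27.8 and 24.2 CPM in CD8 T cells. Pyhin1 stood at 761 CPM in KO and 508 CPM in WT monocytes and was present in all plotted classes, down to 88.4 and 105 CPM in CD8 T cells.

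Mndal and Ifi203, the overlapping pair, were also highest in monocytes (Mndal at 472 CPM in KO and 327 CPM in WT, Ifi203 at 548 and 322 CPM), but T cells held them too, and WT monocytes did not separate from WT CD4 T cells for Ifi203 (226 CPM). In CD8 T cells Mndal stood at 206 CPM in KO and 153 CPM in WT, and Ifi203 at 211 and 170 CPM. Of the plotted classes, mature DCs were lowest for both, with 82.5 and 72.7 CPM of Mndal and 47.9 and 42.6 CPM of Ifi203. Across the 18 class and library values the profiles of the pair had a Pearson r of 0.948 on the log2(CPM + 10) scale, and each was the other's nearest gene of 9010 compared, over points that share depth and, for these 2 genes, sequence.

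Pydc3 had the opposite pattern to Ifi205. It stood at 36.1 CPM in KO and 62.0 CPM in WT T cells without co-receptor UMIs and at 22.3 and 31.2 CPM in CD4 T cells. In cDC1s it stood at 1.61 CPM in KO and 2.57 CPM in WT, from 5 and 7 UMIs. Pydc4, which shares its promoter run with Pydc3, was instead highest in monocytes, at 264 CPM in KO and 181 CPM in WT. Aim2, the inflammasome sensor, was the most even member, between 21.1 and 51.9 CPM in the plotted KO classes and between 16.3 and 55.4 CPM in the WT ones, with mature DCs lowest in both.

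**Figure D1:**
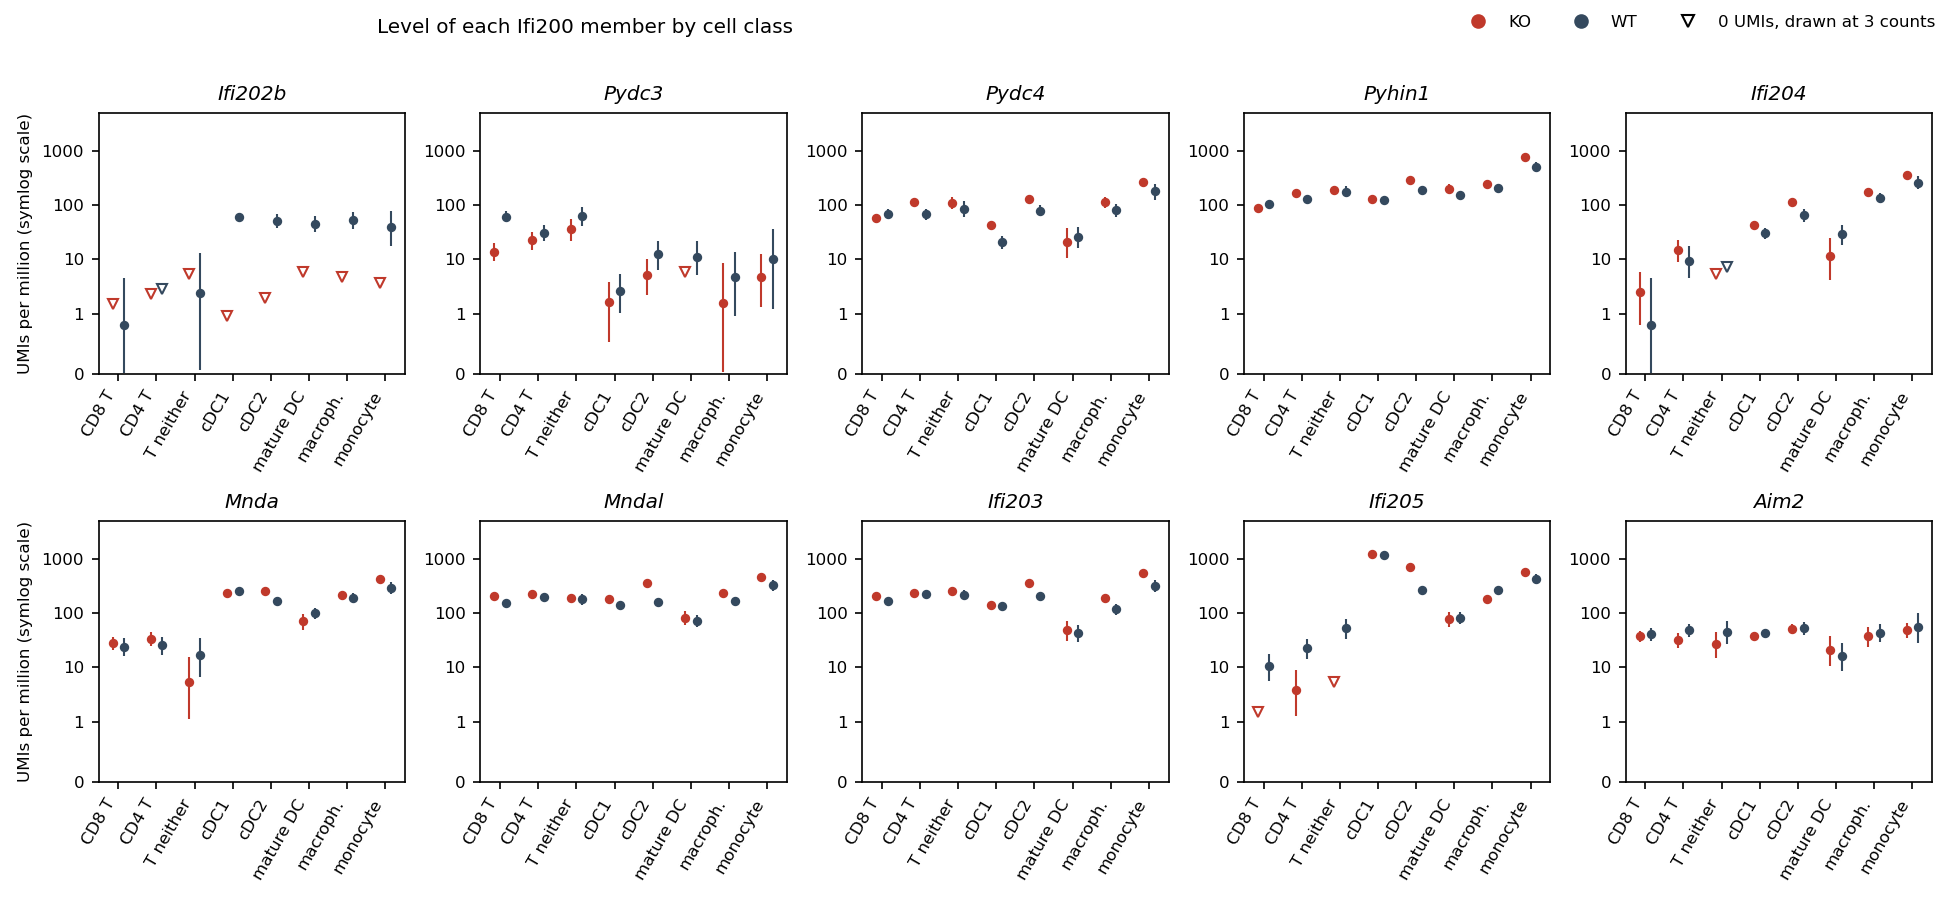
Level of each member in CPM (symlog scale) by cell class, KO left of WT in each pair, with bars for exact 95% Poisson intervals and open triangles for counts of 0 drawn at 3 counts. Ifi205 peaks in cDC1s at 1223 CPM in KO and 1173 CPM in WT, and Ifi202b has points above the floor only in the WT library.

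Ifi202b was the member that set the libraries apart. It held 0 UMIs in KO cells of every class and 0 in all 1219 KO barcodes before filtering. In the WT library it held 166 UMIs in cDC1s (61.1 CPM, interval 52.1 to 71.1), 49 in cDC2s (51.4 CPM), 36 in mature DCs (45.1 CPM), 34 in macrophages (52.7 CPM) and 8 in monocytes (40.3 CPM). These 5 WT levels did not separate beyond their counting intervals. T cells of the WT library held 0 UMIs in the CD4 class and 1 UMI each in the CD8, co-receptor-negative and co-receptor-positive classes. A cluster left unnamed, in which the same cells held T cell and cDC1 markers, had 0 UMIs in 12 KO cells and 25 UMIs in 20 WT cells.

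Set against the floor, Ifi202b was at least 63.1-fold lower in KO than in WT cDC1s, at least 26.8-fold lower in cDC2s, at least 7.85-fold lower in mature DCs and at least 11.3-fold lower in macrophages. Over all cells but melanoma, with 0 KO and 321 WT UMIs, it was at least 136-fold lower in KO. These bounds take the WT counts as exact. The exact intervals, which count WT error too, allow smaller folds. Their upper limits on the KO to WT ratio were 0.0197 in cDC1s, 0.0477 in cDC2s, 0.165 in mature DCs and 0.115 in macrophages. Over all cells but melanoma the upper limit was 0.00908. Among all genes, Ifi202b was the 1 gene with 0 UMIs in KO cells and 50 or more in WT cells, and the next such gene, Retnlg, a neutrophil gene, had 25. In the other direction, Jchain, a plasma cell gene, had 3221 UMIs in KO and 0 in WT cells.

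The WT Ifi202b UMIs were concentrated in part of the cells. Of 171 WT cDC1s, 42 held at least 1 UMI (24.6%, Clopper-Pearson interval 18.3% to 31.7%), and with each cell thinned to 2000 UMIs the share was 10.1%. Of 186 KO cDC1s, 0 held one, which at 3 counts allows a share of cells with a UMI of up to 1.61% (Clopper-Pearson upper limit 1.96%) and sets no limit on cells expressing the gene. For background, 1 of 170 WT CD8 T cells held one (0.588%), at a median depth of 4787.5 UMIs in WT CD8 T cells and 16016 in WT cDC1s. In the same 171 cDC1s, Aim2 had fewer UMIs, 116, but spread them over 75 cells.

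Had the 166 UMIs been spread in proportion to depth, 101 WT cDC1s would have held one. Of the 42 cells, 9 held 1 UMI, 26 held 2 to 5 and 7 held more than 5, up to 17. Among WT cDC2s, 10 of 64 cells held Ifi202b, against 32.7 under an even spread. Among WT macrophages it was 8 of 70 cells, against 22.9. Among WT mature DCs 5 of 98 cells held it, and 1 cell carried 28 of the 36 UMIs, so that class rests on that cell. The median depth of WT cDC1s with an Ifi202b UMI, 15330.5, was below that of cDC1s without, 16527, but in the other classes the cells with one were deeper, with 16319.5 against 13606.5 UMIs in cDC2s, 11762 against 7648 in mature DCs and 12064 against 4927.5 in macrophages. The 3 WT tumors were pooled and cells cannot be assigned to them, so a difference between tumors and a difference between cells of 1 tumor cannot be told apart.

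**Figure D2:**
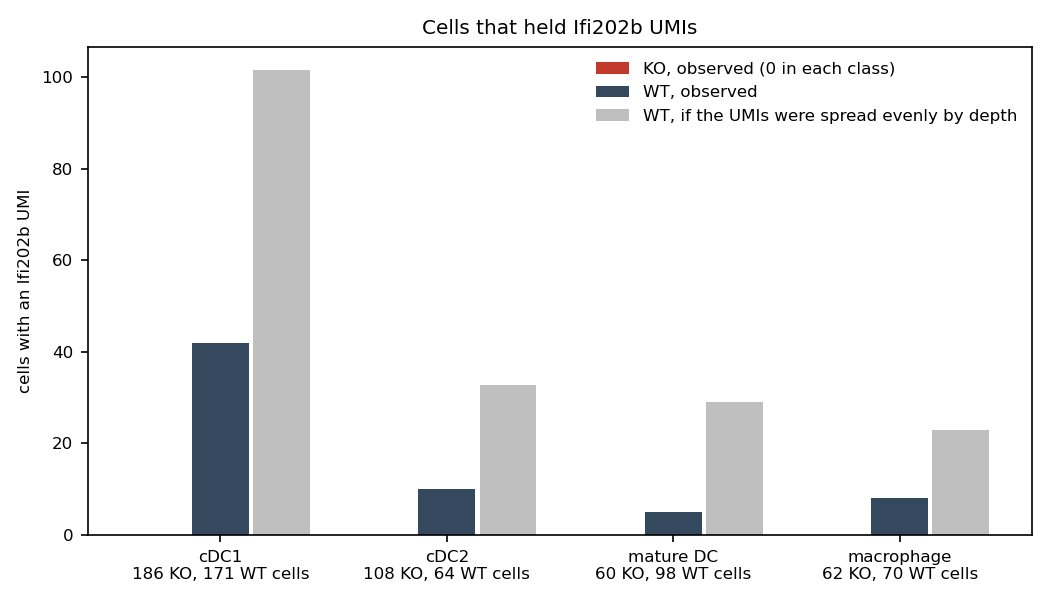
Cells holding at least 1 Ifi202b UMI in 4 classes, KO left of WT, with the WT number under a spread in proportion to depth beside it. All KO bars are at 0, and the WT bars (42, 10, 5 and 8 cells) stand below the even-spread values (101, 32.7, 29.0 and 22.9).

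WT cells with and without Ifi202b were compared for the other members, a comparison chosen after these values had been seen. All 5 WT cDC1s with a Pydc3 UMI were among the 42 cells with Ifi202b, and 0 of the 129 others held one. In WT cDC2s, 4 of 10 cells with Ifi202b and 3 of 54 without held Pydc3, with 9 and 3 UMIs. Mnda, which lies beyond Ifi203, was 1.32-fold higher (interval 1.11 to 1.56) in WT cDC1s with Ifi202b, and 2.66-fold higher (1.91 to 3.69) in WT cDC2s with it, where 1 cell gave 17 of 62 UMIs. Ifi205, on the other side, stood at 0.790 of the level of the other WT cDC1s (0.724 to 0.861). For Pydc4, Pyhin1, Ifi204, Mndal, Ifi203 and Aim2 the intervals in cDC1s and cDC2s included 1. In WT macrophages the 8 cells with Ifi202b held 0 UMIs of Pydc4, against 52 in the 62 others, and Pyhin1 stood at 0.443 of the level of the others (0.216 to 0.822). In WT mature DCs, where 1 cell carried most of the Ifi202b, all 9 other members were higher in the 5 cells with it, from 2.18-fold for Pyhin1 (1.25 to 3.62) and 7.96-fold for Ifi203 (3.66 to 16.7) to Pydc3, with 8 and 1 UMIs. There 10 of the 13 Ifi203 UMIs and all 8 Pydc3 UMIs came from 1 cell each.

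In CD8 T cells, the cells in which Cre was driven, 7 members could be tested, 0 were higher (background 5.34% of 8152 genes) and 1 was lower (background 5.62%). The lower member was Pydc3, whose name marks a pyrin domain. It had 28 UMIs and 13.9 CPM in KO CD8 T cells, against 76 UMIs and 61.4 CPM in WT CD8 T cells, a log2 ratio of -2.14 (ratio interval 0.141 to 0.354). Its UMIs lay in 18 of 183 KO cells (9.84%) and 45 of 170 WT cells (26.5%), or 3.98% and 18.1% after thinning, and the top cells held 5 and 6 UMIs. The ratio was 0.256 in naive-like CD8 T cells (3 KO and 12 WT UMIs) and 0.251 (0.151 to 0.406) in other non-cycling CD8 T cells.

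Different clusters held most CD8 T cells in the libraries, and the part of this in the Pydc3 value was not tested. A cluster led by Xcl1, Prf1 and Gzmc held 62 KO and 26 WT CD8 T cells, and a cluster led by Cd8b1, Gzmk and Ccl5 held 48 and 83. Taken apart, a comparison added after seeing the data, Pydc3 stood at 79.4 CPM in KO and 150 CPM in WT cells of the Gzmk cluster, a ratio of 0.529 (0.288 to 0.927), and had 5 KO and 0 WT UMIs in the Xcl1 cluster. In the Gzmk cluster Mndal was 2.21-fold (1.56 to 3.15) and Ifi203 1.52-fold (1.12 to 2.06). Aim2 stood there at 0.292 of the WT level (0.0735 to 0.855, from 4 KO and 23 WT UMIs). For Pydc4 and Pyhin1 the intervals in that cluster included 1. In the Xcl1 cluster the intervals of Mndal, Ifi203 and Aim2 included 1. No share over all genes was computed for either cluster.

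Pydc3 also had the lower CPM in KO in the other 6 classes, without a call. Of these, only CD4 T cells, T cells without co-receptor UMIs and cDC2s held enough of its UMIs to be tested. In cDC1s (5 KO and 7 WT UMIs), mature DCs (0 and 9) and macrophages (1 and 3) it could not be tested. The macrophage counts were at or under the floor, where a direction means nothing. Pydc3 stood at 22.3 CPM in KO and 31.2 CPM in WT CD4 T cells (ratio interval 0.419 to 1.22). In cDC2s it stood at 5.12 and 12.6 CPM (0.144 to 1.08). Of the other tested members in CD8 T cells, the furthest from level was Mndal at 1.35-fold (1.13 to 1.61).

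In CD4 T cells 9 members could be tested, 1 was higher (background 3.94% of 7765 genes) and 1 was lower (background 4.66%). Pydc4 stood at 112 CPM in KO and 68.1 CPM in WT CD4 T cells, a ratio of 1.65 (1.24 to 2.22), and was found in 76 of 176 KO cells and 45 of 178 WT cells. In T cells without co-receptor UMIs, 7 could be tested, 0 were higher (3.38% of 5327 genes) and 1 was lower (6.19%). Naive-like cells led that class in KO (54 of 134 cells, against 23 of 117 in WT). The lower member in both classes was Ifi205, and its UMIs sat in very few cells.

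Ifi205 had 5 UMIs in KO and 24 in WT CD4 T cells, and 1 WT cell carried 19 of the 24. In T cells without co-receptor UMIs it had 0 in KO and 22 in WT, all from 1 cell. Transcripts of antigen-presenting cells made up 3.25% and 5.91% of the UMIs of those 2 WT cells, where the class medians were 0.0226% and 0.0245%. Without T cells in which such transcripts exceeded 0.5%, 1 UMI was left in each library's CD4 class and 0 in the co-receptor-negative class, so both calls rest on single cells.

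Of the 7 classes, cDC2s had the most members called, with 6 higher and 1 lower. In cDC1s 9 could be tested, and 1 was higher (background 2.97% of 8892 genes). This was Pydc4, with 43.2 CPM in KO and 21.0 CPM in WT cDC1s, 2.06-fold (1.502 to 2.86). Ifi202b was the 1 lower member (background 3.22%). Mndal stood at 1.26-fold (1.10 to 1.44), short of the rule, and the intervals of Ifi205 (ratio 1.04, 0.994 to 1.09), Mnda (0.929) and Ifi203 (1.07) included 1.

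In cDC2s all 10 could be tested, 6 were higher (background 4.9% of 7429 genes) and Ifi202b was the 1 lower (background 4.37%). Ifi205 stood at 710 CPM in KO and 273 CPM in WT cDC2s, 2.60-fold (2.27 to 2.99), and was found in 81 of 108 KO and 28 of 64 WT cells. Mndal stood at 353 CPM in KO and 164 CPM in WT, 2.16-fold (1.81 to 2.60). Ifi203 (1.76-fold), Ifi204 (1.74-fold), Pydc4 (1.65-fold) and Pyhin1 (1.53-fold) were also higher. Mnda, at 1.49-fold (1.24 to 1.80), lay just outside the rule that Pyhin1 met, and Aim2 was level at 51.9 CPM in KO and 52.4 CPM in WT. With cDC2s gated cell by cell on markers, without clusters, Ifi204 (log2 ratio 0.12) and Pyhin1 (0.35) were no longer called.

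The median log2 ratio of the members in cDC2s was 0.67, and that of all tested genes was 0.00493. Of the higher members with a promoter entry, Pydc4, Mndal, Ifi203 and Ifi205 hold the motif shown above and Pyhin1 does not, while Pydc3 and Mnda hold it and were not called.

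Markers of other cells differed in the same class. KO cDC2s held 321 CPM of the summed macrophage markers (8 of 8 detected), against 57.7 CPM in WT cDC2s (6 of 8), and 500 CPM of cDC1 markers (6 of 7), against 277 CPM in WT (6 of 7). Monocyte markers stood at 2288 CPM in KO (7 of 7) and 1805 CPM in WT (6 of 7), and the cDC2 markers themselves at 2360 and 2523 CPM. Without cDC2s holding 2 or more macrophage markers (10 KO and 2 WT cells), an alternative added after seeing the data, the same 6 members were higher, with Ifi205 at a log2 ratio of 1.39. Without cDC2s holding 2 or more cDC1 markers (61 KO and 26 WT cells), also added later, the same 6 were higher again, with Ifi205 at 2.01 and Mndal at 1.68. No such exclusion was run on monocyte markers. Of the 6, Pydc4, Pyhin1, Ifi204, Mndal and Ifi203 were highest in monocytes in both libraries. The part of monocyte transcripts in these calls was not tested.

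In mature DCs 9 members could be tested, 0 were higher (background 3.09% of 5243 genes) and Ifi202b was the 1 lower (background 3.89%). In macrophages 9 could be tested, 1 was higher (background 3.63% of 5888 genes) and Ifi202b was the 1 lower (background 5.04%). The higher member was Ifi203, at 187 CPM in KO and 118 CPM in WT macrophages, 1.59-fold (1.19 to 2.15). With cells gated one by one on markers its log2 ratio was -0.044, and after thinning it was 0.39 with no call. Ifi205 was at 0.694 of the WT level there (0.544 to 0.883), short of the rule. KO macrophages also held more of the summed monocyte markers, 2570 CPM against 1568 CPM in WT macrophages, and the part of this in the Ifi203 difference was not tested.

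Of the 70 pairs of member and class, 60 could be tested, 9 were called higher and 7 lower. By class, the shares over all genes were 2.97% to 5.34% higher and 3.22% to 6.19% lower. Of the 7 lower pairs, 4 were Ifi202b, which was singled out for its difference in these same data. Another 2 were Ifi205 in T cells, resting on single cells, and 1 was Pydc3. The lower count is therefore no result about the members to set beside those shares. With every cell's CPM averaged at equal weight, 18 pairs passed 1.5-fold to the higher side, with intervals rescaled from the summed counts. No share over all genes was computed for that setting, so the 18 is no result about the members. Over all cells but melanoma, Pydc4, Ifi204 and Mndal were higher (background 3.66% of 11461 genes) and Pydc3 and Ifi202b lower (background 3.73%), a sum that also carries the larger number of KO monocytes, 88 cells against 26 in WT.

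**Figure D3:**
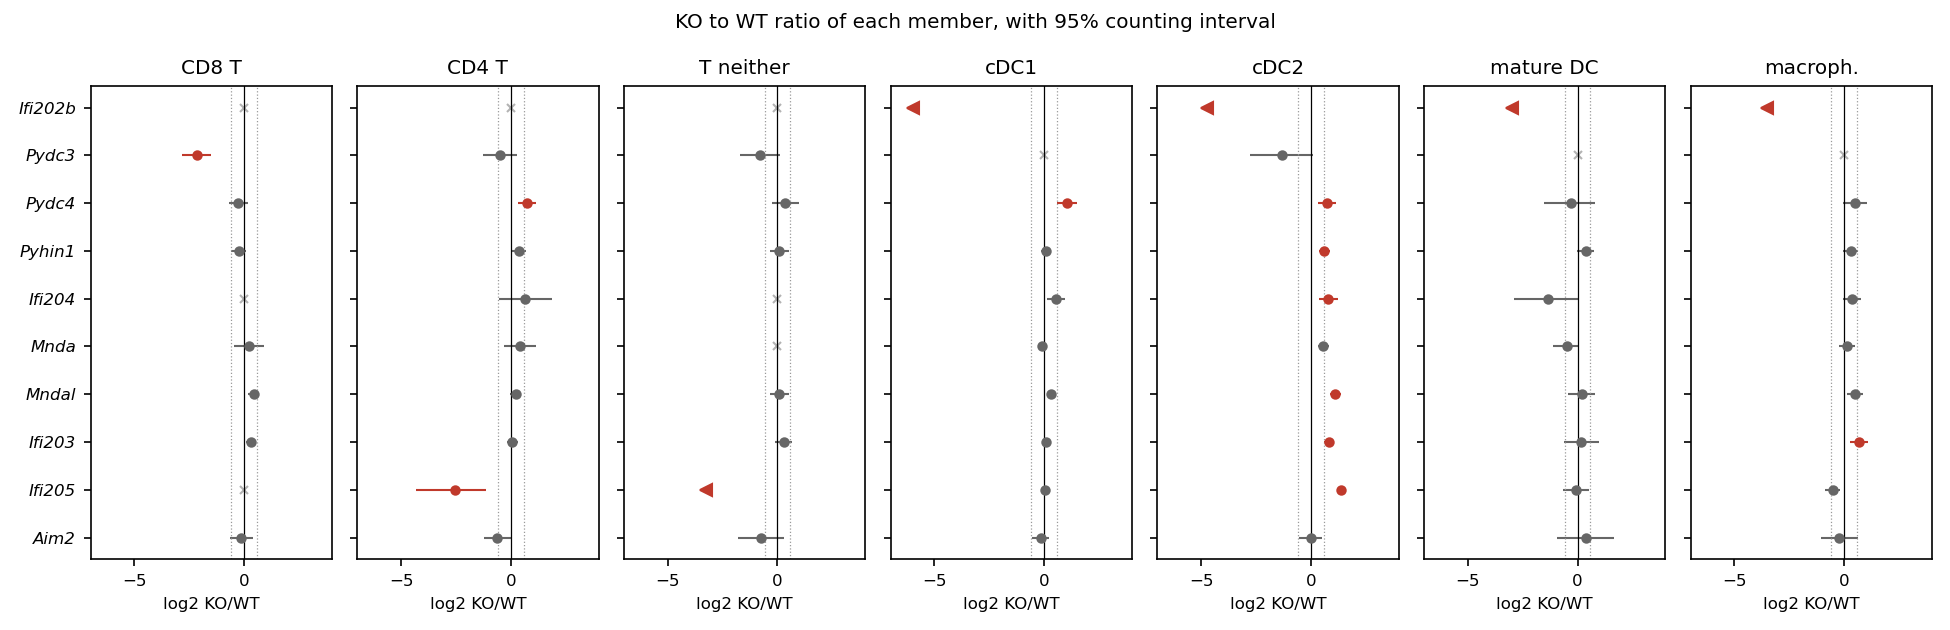
Log2 ratio of KO to WT for each member in 7 classes, with exact 95% counting intervals; red marks a call, grey no call, a cross a member with too few UMIs, a triangle a bound with KO at 3 counts, and dotted lines 1.5-fold. Ifi202b lies at the left edge in 4 classes, and 6 members lie beyond 1.5-fold to the right in cDC2s.

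Other genes in and around the family's block did not share the Ifi202b difference. Within 1.5 Mb of the members described here, 22 of 63 other annotated genes could be tested over all cells but melanoma. Their log2 ratios ran from -1.28 to 0.78, with a median of -0.14. Of these genes, Gm4955, BC094916 and AI607873 lie inside the block, between Aim2 and Ifi204, so they are not outside neighbours. Slamf8, a myeloid surface receptor gene, was higher (72.2 CPM in KO and 46.7 CPM in WT, 1.54-fold), as was Gm4955 (34.2 and 19.9 CPM, 1.71-fold). Vangl2, a planar cell polarity gene, was lower on 11 KO and 21 WT UMIs. The nearest tested genes to Ifi202b were Ifi203 on one side (235 CPM in KO and 158 CPM in WT, 1.49-fold) and Ifi205 on the other (502 and 461 CPM, 1.09-fold).

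**Figure D4:**
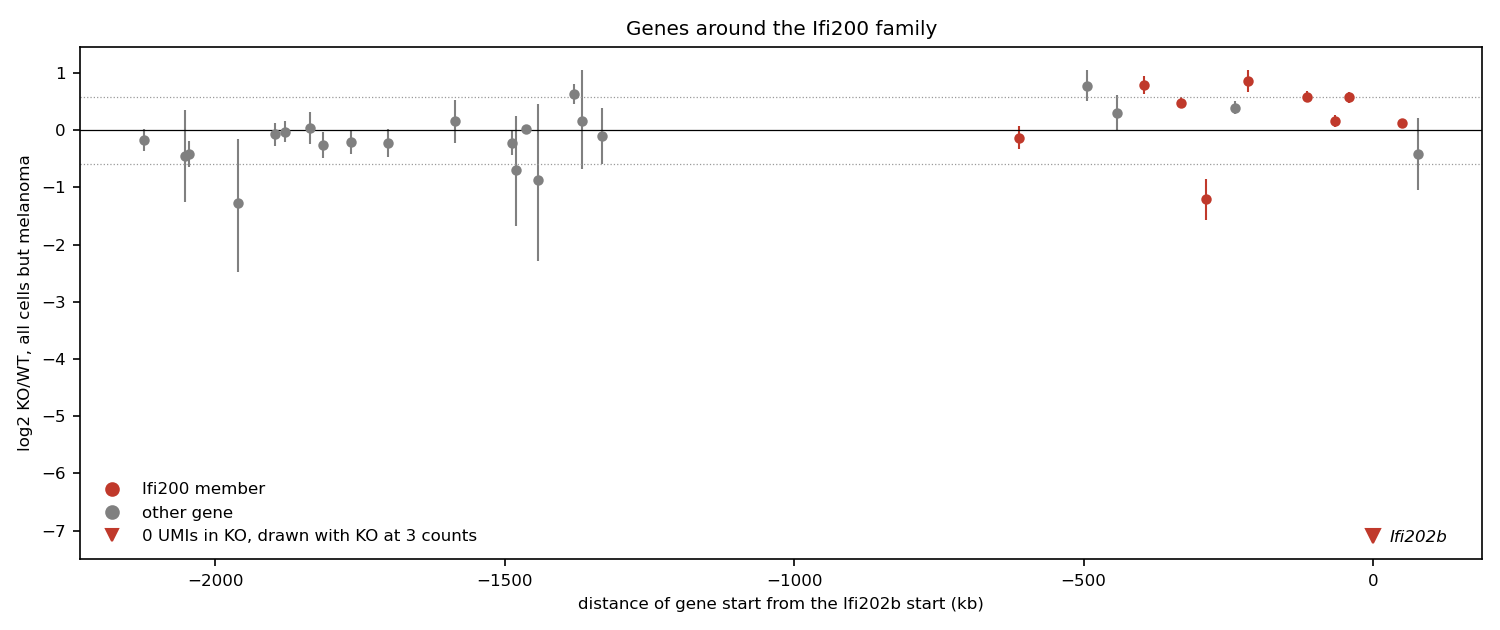
Log2 ratio of KO to WT over all cells but melanoma for tested genes in and around the family. The horizontal axis is the distance of the gene start from the Ifi202b start in kb. Bars are exact 95% counting intervals, and dotted lines mark 1.5-fold. Ifi202b, drawn with KO at 3 counts, lies far below its neighbours Ifi203 and Ifi205, which are at 1.49-fold and 1.09-fold.

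Genes that work with the family were read from a list of 16 inflammasome and DNA sensing genes. In CD8 T cells, CD4 T cells and T cells without co-receptor UMIs, 0 of the 9 or 10 tested were called in either direction. In cDC2s 3 of 12 were higher and 1 was lower (4.9% and 4.37% over all genes), in mature DCs 2 of 10 and 1 (3.09% and 3.89%), in macrophages 1 of 12 and 1 (3.63% and 5.04%), and in cDC1s 0 of 13 and 1 (2.97% and 3.22%). Single calls in a list of this length are near those shares. Casp1, the inflammasome protease, stood at 96.7 CPM in KO and 59.8 CPM in WT cDC2s (1.62-fold), Casp4, which senses bacterial lipopolysaccharide, at 46.7 and 21.0 CPM (2.23-fold), and Zbp1, a nucleic acid sensor, at 320 and 205 CPM (1.57-fold).

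Il1b, the cytokine that caspase-1 processes, was lower in 3 classes. It stood at 76.8 CPM in KO and 331 CPM in WT cDC1s, 174 and 796 CPM in macrophages, and 382 and 575 CPM in cDC2s. In mature DCs Pycard, the Asc adaptor, was lower (42.2 CPM in KO and 79.0 CPM in WT) and Tmem173, the STING gene, was higher (136 and 89.0 CPM). List medians of the log2 ratio ran from -0.09 to 0.15 over the 7 classes.

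A list of 20 type I interferon response genes gives the setting for an interferon-inducible family. In cDC2s 11 of 20 tested were higher and 0 lower, with Irf7, a transcription factor of the interferon response, at 734 CPM in KO and 404 CPM in WT. Over all genes the share higher in cDC2s was 4.9%. In cDC1s 9 of 20 were higher (2.97% over all genes), in CD4 T cells 8 of 20 (3.94%) and in macrophages 6 of 19 (3.63%), with 0 lower in each. In CD8 T cells 0 of 19 were higher and 4 lower (5.34% and 5.62% over all genes). Among the 4 was Rsad2, an antiviral enzyme gene, at 13.4 CPM in KO and 39.6 CPM in WT. The summed list was nonetheless higher in KO CD8 T cells with a Pydc3 UMI (6854 CPM, against 5469 in WT) and without one (3443 against 2494). Within the Gzmk cluster (48 KO and 83 WT CD8 T cells) it was also higher in KO. There it stood at 9905 and 7740 CPM with Pydc3, and at 6165 and 3070 CPM without. The part of this cluster difference in the calls was not tested. In mature DCs 2 of 18 were higher and 2 lower (3.09% and 3.89% over all genes). In T cells without co-receptor UMIs 1 of 18 was higher (3.38%), a single call near that share. List medians of the log2 ratio were 0.60 in cDC2s, 0.59 in cDC1s, 0.49 in CD4 T cells, 0.45 in macrophages and -0.10 in CD8 T cells, where all tested genes had medians of -0.04 to 0.03 in those classes.

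Genes called in the same direction in every class where they could be tested, with at least 4 such classes, numbered 6 of 6946, on 6 chromosomes, and Ifi202b was the 1 on chromosome 1. Hspb1, a small heat shock protein gene, was lower, but 70 of its 83 UMIs in WT cDC1s and all 75 in WT cDC2s came from 1 cell each. Fos, an immediate early gene, and Ppp1r15a, a stress-response phosphatase subunit gene, were lower in 7 classes, with ranges of log2 ratio of -2.14 to -0.64 and -1.33 to -0.64. Cd70, a costimulatory ligand gene, and Ly6i, an Ly6 family surface protein gene, were higher in 4 classes each. Single KO cells gave 21 of 25 Cd70 UMIs in macrophages, 27 of 83 in CD4 T cells and 22 of 40 Ly6i UMIs in mature DCs. The genes whose profile over the 18 values was most like that of Ifi202b were Galnt11 (Pearson r 0.764), Jup (0.697), Snrnp35 (0.668), Smim3 (0.662) and Wdr91 (0.657), over points of which the KO values of Ifi202b are all 0.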

How the data were processed

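Per the file headers and their whole-number values, the authors deposited raw UMI counts for 27998 genes in 1 KO and 1 WT droplet library. The submitters' processing notes name Cell Ranger 1.3 and mm10, and the matrix header names software 3.0.2. Chemistry, strand handling and annotation release are not given in the sources used here.

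Cells were kept with at least 500 UMIs, 300 genes and at most 10% mitochondrial UMIs, and 5 KO (0.460%) and 6 WT (0.607%) doublets called by Scrublet were removed. Cells were clustered with scanpy 1.11.5 and leidenalg 0.10.2 (2000 variable genes without the members, Tcf7, antigen receptor and mitochondrial genes, 30 components, 15 neighbours, resolution 1), which gave 18 clusters. Counts were summed per class and library and scaled to CPM, with exact Poisson intervals, and ratios have exact conditional binomial intervals (scipy 1.17.1). The calling step was also run on Poisson counts simulated from the class totals. Those counts hold no spread between cells, tumors or libraries, so that run covers counting error only and cannot vouch for the calls. The named genes were all 10 members, list genes and neighbours past the call rule, genes called in 1 direction in every class, and the 5 profiles most like Ifi202b. Members and lists were chosen with earlier results of these data known. Depth ranged from 504 to 75823 UMIs per barcode.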

Additional observations from a re-analysis of the deposited data

Results flagged for a closer look

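Ifi205 was called in opposite directions in different classes. Its log2 ratio of KO to WT was -2.56 in CD4 T cells and -3.27 in T cells without co-receptor UMIs (there with KO at the floor of 3 counts), against 1.38 in cDC2s. The difference between these classes was not tested, since each group is 1 library. The T cell values rest on 19 of 24 and 22 of 22 WT UMIs in 1 cell each.

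Barcodes outside the comparisons also carried Ifi202b. The 138 WT barcodes left out by the cell and doublet filters held 14 Ifi202b UMIs, and the 138 KO barcodes left out held 0.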

How the results depend on the processing

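No paired analysis was possible because each group is 1 library. The Ifi202b log2 bound in KO was -5.98 in cDC1s, -4.74 in cDC2s, -2.97 in mature DCs and -3.50 in macrophages. In cDC1s it was called under each alternative run. With each cell thinned to 2000 UMIs it fell short of the 20-UMI minimum in cDC2s (-1.50), mature DCs (-0.88) and macrophages (-0.41), and likewise without the top cell in mature DCs (-0.80) and with cells gated one by one on markers in macrophages (-3.01). At Leiden resolution 0.6 the macrophage class (19 KO and 24 WT cells) held 0 KO and 2 WT UMIs, both under the floor, so no ratio is given. A minimum of 50 CPM left the mature DC value (-2.97) untested.

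The 9 calls of a member higher became 3 at 2-fold (2 in cDC2s). With every cell's CPM averaged at equal weight, 18 pairs passed 1.5-fold to the higher side. Their intervals were rescaled from the summed counts and leave out the error that equal weighting of shallow cells adds. The 18 is therefore not like for like with the 9, and its cause was not tested. No share over all genes was computed for either setting. The 7 lower became 2 after thinning, where the other 5 no longer met the 20-UMI minimum. Gating cells one by one turned Ifi203 in macrophages (-0.044) and Ifi205 in CD4 T cells (0.14). The unthinned share of WT cDC1s with Ifi202b was 24.6%, and 10.1% when thinned. Other scalings moved the median of all genes by under 0.1 on the log2 scale in each class. Over these alternatives, calls of the other members were lost 28 times, 12 of them because the member could no longer be tested (in 7 both libraries were at or under the floor, where a sign means nothing) and 6 at the 2-fold rule. Members without a call gained one 33 times, with no share over all genes computed beside these gains.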

Other observations

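Within the T cells, the members differed by state, in subsets looked at after the classes. In CD4 T cells of the cluster led by Foxp3, the regulatory T cell factor (36 KO and 57 WT cells), Pydc4 stood at 151 CPM in KO and 38.1 CPM in WT, 3.97-fold (interval 2.11 to 7.82). Mndal stood there at 363 CPM in KO and 165 CPM in WT (2.20-fold, 1.57 to 3.09) and Pyhin1 at 281 and 137 CPM (2.05-fold, 1.40 to 2.99). In the other CD4 T cells outside the naive-like cluster (92 KO and 91 WT cells) Pydc4 was 1.31-fold (0.880 to 1.98), Mndal 1.18-fold and Pyhin1 1.23-fold, and the difference between these subsets was not tested. In naive-like CD8 T cells (43 KO and 38 WT cells) Ifi203 stood at 154 CPM in KO and 69.5 CPM in WT, 2.22-fold (1.08 to 4.83).

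CD8 T cells with a Pydc3 UMI also held more of the interferon list. The 18 such KO cells held 6854 CPM of the 20 listed genes together, against 3443 CPM in the 165 KO cells without one, and 20 of 20 genes were higher in cells with the UMI. The 45 such WT cells held 5469 CPM, against 2494 CPM in the 125 WT cells without one, with 19 of 20 genes higher. Within the Gzmk cluster alone the list stood at 9905 CPM in 9 KO cells with Pydc3 and 6165 CPM in 39 without (ratio 1.61, 1.43 to 1.80), and at 7740 CPM in 27 WT cells with it and 3070 CPM in 56 without (2.52, 2.29 to 2.78). Over all CD8 T cells, median depths with and without a Pydc3 UMI were 5559 and 6644 UMIs in KO and 4720 and 4845 UMIs in WT. Depth within the Gzmk cluster was not compared. For Ifi202b the classes differed. WT cDC1s held 3062 CPM of the list in the 42 cells with it and 3325 CPM in the 129 without, although 14 of 20 genes were higher in cells with it. WT cDC2s held 7562 CPM in the 10 cells with it and 5245 CPM in the 54 without (1.44, 1.36 to 1.53), with 17 of 20 genes higher. In cDC1s, the KO to WT ratio of Pyhin1 was 0.657 (0.473 to 0.913) in cycling and 1.22 (1.03 to 1.43) in non-cycling cells. Ifi203 stood at 0.711 (0.535 to 0.947) and 1.22 (1.04 to 1.44). Ifi205 stood at 0.867 (0.778 to 0.966) and 1.11 (1.05 to 1.17). Mnda stood at 0.725 (0.576 to 0.914) in cycling cells, and its non-cycling interval included 1. Pydc4 went the other way in cycling cells, at 2.27 (1.14 to 4.92). For Mndal, Ifi204 and Aim2 the cycling intervals included 1. The difference between cycling and non-cycling cells was not tested.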
